A study of Mus musculus with 63 samples.

Results

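The 7 hearts of Cast mice were compared after they were divided by their level of Fkbp5, and 3 of them (the high-Fkbp5 hearts) were set against the other 4 (the low-Fkbp5 hearts). The hearts were chosen by a measured value, Fkbp5 itself: a heart was placed in the high group if its Fkbp5 level was above 200 CPM, and in the low group otherwise. CPM are counts scaled to a common library size, after the TMM correction for differences in library make-up. The 3 high hearts and the 4 low hearts are all 7 Cast hearts, of 63 hearts in all. The Fkbp5 levels were 363, 235 and 256 CPM in Cast_1, Cast_5 and Cast_6, against 107, 72.6, 84.7 and 54.0 CPM in Cast_2, Cast_3, Cast_7 and Cast_8. The hearts nearest to the limit were Cast_5 inside it, with 235 CPM, and Cast_2 outside it, with 107 CPM. In what follows the 3 values of the high hearts are always given in the order Cast_1, Cast_5 and Cast_6, and the 4 values of the low hearts in the order Cast_2, Cast_3, Cast_7 and Cast_8.

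The study profiled heart RNA in 63 libraries from 8 inbred founder strains: Cast (7 libraries) and 129, AJ, B6, NOD, NZO, PWK and WSB (8 each, 56 together). Both Cast groups share strain and tissue, and like all 56 other hearts they came from mice fed a diet rich in fat (45%) and sugar. The labels describe no treatment that separates the high from the low hearts, and sex, age and time of collection are not in the labels used here. The labels also do not say that libraries of a strain are separate animals, so the spread between them may in part be technical. Each library is called a heart below.

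Fkbp5 encodes FKBP51, a co-chaperone of HSP90 that lowers the affinity of the glucocorticoid receptor for its hormone, and its gene is a direct target of that receptor. Glucocorticoids released in stress enter heart cells, bind the receptor (the product of Nr3c1), and the receptor then moves to the nucleus and switches genes such as Tsc22d3, Per1, Klf15, Zbtb16 and the metallothioneins on or off. Chaperones of the HSP90 group hold the empty receptor ready to bind hormone. Glucocorticoids are also known to lower collagen synthesis in fibroblasts and to alter traffic of neutrophils.

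Fkbp5 lies on mouse chromosome 17, from 28399095 to 28517524 (GRCm38, minus strand) and ran from 8.15 to 65.4 CPM in the 56 hearts of the other strains, whose strain medians lay between 13.3 and 34.4 CPM. All 3 high Cast hearts and 3 of the 4 low ones were above every heart of the other strains, while Cast_8 was below 129_6, the highest of them at 65.4 CPM. Reads were counted on a genome of the B6 strain, and loss of Cast reads to sequence variants, which would touch a level in Cast against the other strains, was not tested.

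**Figure D1:**
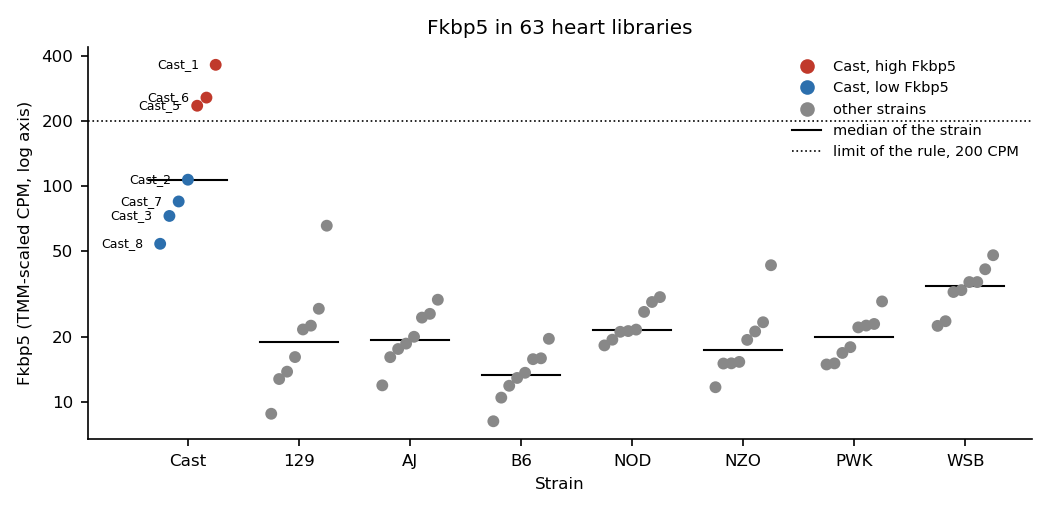
Fkbp5 level (TMM-scaled CPM, log axis) in each of the 63 libraries, by strain, with the median of each strain as a bar and the limit of 200 CPM as a dotted line. The 3 high Cast hearts sit between 235 and 363 CPM, the 4 low Cast hearts between 54.0 and 107 CPM, and the other 56 hearts between 8.15 and 65.4 CPM.

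Sequencing depth did not separate the groups: total counts were 27.5 to 32.4 M in the high hearts, 21.8 to 38.7 M in the low hearts and 23.1 to 42.95 M in the other strains. Genes of the mitochondrial genome took 21.4 to 24.2% of counts in the high hearts, 21.8 to 22.2% in the low hearts and 15.9 to 31.1% in the others. Markers of heart muscle were abundant throughout, with 69272 to 73200 CPM in the high hearts, 68557 to 73914 CPM in the low hearts and 50705 to 88049 CPM in the others, summed over 20 sarcomere genes. Xist, which is transcribed from the inactive X of female cells, was at 411, 0.818 and 1.18 CPM in the high hearts and 478, 420.5, 1.04 and 0.830 CPM in the low hearts, so 1 of 3 high and 2 of 4 low hearts had it, and its part in the results was examined with Xist as a covariate. The first principal component of the 7 Cast hearts held 37.9% of the variance and put the high hearts between 26.5 and 40.1 and the low hearts between -29.0 and -16.6. The second held 25.2% and set Cast_1, at 48.0, apart from Cast_5 at -30.6 and Cast_6 at -13.4, so the high hearts were not alike.

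A gene is counted below as higher or lower when the adjusted p of edgeR's quasi-likelihood test was under 0.05 over all 14808 genes tested in Cast, Fkbp5 left out. Because the hearts were divided by a level measured in the same libraries, these counts describe the 2 groups and are not evidence for the division. Log2 fold changes are high over low hearts, with a standard error. Of the 14808 genes, 917 (6.19%) were higher and 903 (6.1%) lower in the high hearts, and 212 in each direction differed at least 2-fold. These shares are the background for the counts of every list below, and a list near them does not stand out. The median over all tested genes was 0.02 on the log2 scale. High and low hearts did not overlap in 902 of the 917 higher and 893 of the 903 lower genes, against 25.6% of all tested genes. In 397 of the 917 higher genes all 3 high hearts were above, and in 255 of the 903 lower genes below, every one of the 56 hearts of the other strains. The 4 low hearts all lay within the range of those 56 hearts in 671 of the higher and 664 of the lower genes. The share of all tested genes in these positions was not computed. These counts beside the other strains therefore have no background and are not read as a trait of the high hearts. These counts depended on single hearts: leaving out each Cast heart in turn gave 331 (without Cast_3) to 1419 (without Cast_1) higher genes and 358 (without Cast_6) to 1478 (without Cast_1) lower genes. The counts were 436 higher without Cast_6, 367 lower without Cast_3, 429 higher and 433 lower without Cast_7, and 336 higher and 361 lower without Cast_8.

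**Figure D2:**
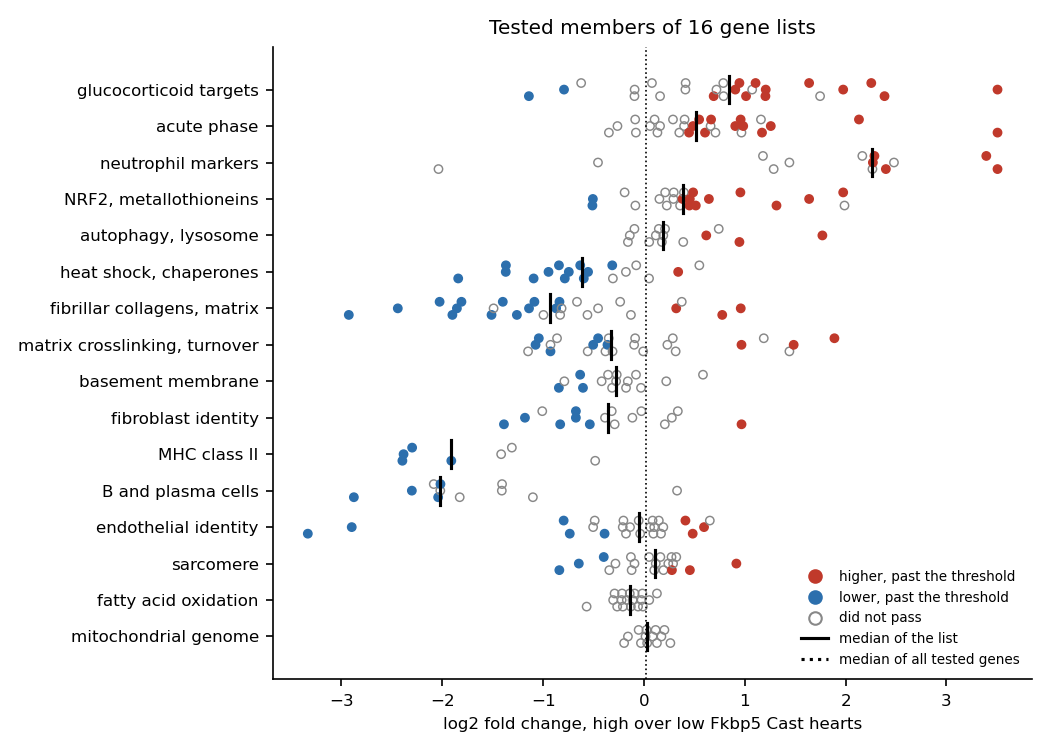
Log2 fold change, high over low Cast hearts, of each tested member of 16 gene lists (points, filled where past the threshold), with the median of each list as a bar and the median of all 14808 tested genes, 0.02, as a dotted line. The glucocorticoid targets have their median at 0.85 and the fibrillar collagens and matrix genes at -0.93.

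The list of glucocorticoid receptor targets was chosen with earlier results of these data known. It had 28 members, of which Fkbp5 was left out and 26 were tested. Of these, 12 were higher and 2 lower in the high hearts, with a median log2 fold change of 0.85, and the number higher ran from 8 (without Cast_8) to 14 (without Cast_5) when single hearts were left out. The summed level of all 28 members overlapped, with 5693, 2071 and 2049 CPM in the high hearts, against 3028, 2542, 1675 and 2282 CPM in the low hearts. In that sum Pdk4 alone had 2834, 311 and 219 CPM in the high hearts, against 1521, 1242, 391.5 and 1093 CPM in the low hearts. The largest differences were in Lcn2, Tat, Hif3a, Mt2 and Mt1, and the list holds them next to Tsc22d3, Per1, Klf15, Map3k6, Nfkbia, Cebpd and Sult1a1.

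Hif3a, an inhibitory member of the hypoxia-inducible factor family, had 32.1, 18.3 and 19.3 CPM in the high hearts, against 8.55, 3.82, 4.18 and 3.15 CPM in the low hearts. The groups did not overlap, and Cast_1 was the highest heart and Cast_2 the highest of the low hearts, an order that Fkbp5 also had. The log2 fold change was 2.25 ± 0.35, and the other strains spanned 0.373 to 9.37 CPM. Klf15, a regulator of amino acid and lipid use in muscle, had 145, 92.9 and 112 CPM in the high hearts, against 77.7, 47.5, 55.6 and 36.0 CPM in the low hearts, again without overlap and again with Cast_1 and Cast_2 highest in their groups (1.11 ± 0.25). Tsc22d3, which encodes the anti-inflammatory protein GILZ, had 181, 133 and 124 CPM in the high hearts, against 103, 90.8, 87.0 and 80.4 CPM in the low hearts (0.69 ± 0.14). Per1, a clock gene that glucocorticoids induce directly, had 94.1, 103 and 85.4 CPM in the high hearts, against 42.8, 40.9, 71.1 and 41.0 CPM in the low hearts. Here the low hearts were not alike, since Cast_7 stood well above the other 3, yet all 3 high hearts were above it (0.95 ± 0.20). Without Cast_8 the genes Tsc22d3, Per1 and Klf15 did not pass the threshold. Per1 also missed it without Cast_3 or Cast_5, and Klf15 without Cast_1, Cast_3, Cast_6 or Cast_7.

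Mt2 and Mt1 encode metallothioneins, small proteins that bind zinc and other metals. Mt2 had 81.4, 37.5 and 30.8 CPM in the high hearts, against 14.7, 10.97, 14.8 and 10.4 CPM in the low hearts, and Mt1 had 188, 84.8 and 102 CPM in the high hearts, against 47.3, 39.9, 41.0 and 32.7 CPM in the low hearts. In both genes Cast_1 was far above the other high hearts, and no low heart reached a high one. The log2 fold changes were 1.98 ± 0.34 for Mt2 and 1.64 ± 0.26 for Mt1, with calls that held whichever heart was left out. Tat, the hormone-induced tyrosine aminotransferase of liver, was scarce in heart, with 1.48, 0.606 and 0.720 CPM in the high hearts, against 0.226, 0.127, 0.269 and 0.0995 CPM in the low hearts. It was higher in every high heart (2.39 ± 0.50), though the call was lost without Cast_3 or Cast_8. Map3k6, a stress kinase gene, had 41.4, 43.4 and 37.9 CPM in the high hearts, against 24.5, 13.5, 21.4 and 11.8 CPM in the low hearts. Its groups did not overlap, and the high hearts were close together while the low hearts fell into a higher pair, Cast_2 and Cast_7, and a lower pair (1.20 ± 0.24). Nfkbia, the inhibitor of NF-kappaB, and Cebpd, a transcription factor of the acute phase, were higher by 1.01 ± 0.14 and 0.91 ± 0.10 on the log2 scale.

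Other classical targets did not pass or were lower. Zbtb16, which encodes the factor PLZF, had 372, 209.6 and 214 CPM in the high hearts, against 246, 130.2, 202 and 67.5 CPM in the low hearts, so that Cast_2 was above Cast_5 and Cast_6. Sgk1, a kinase that regulates ion channels, had 88.5, 85.2 and 81.3 CPM in the high hearts, against 51.0, 70.9, 57.0 and 76.3 CPM in the low hearts, without overlap but not past the threshold (0.41 ± 0.13). Pdk4, which blocks glucose oxidation by inhibiting pyruvate dehydrogenase, had 2834, 311 and 219 CPM in the high hearts, against 1521, 1242, 391.5 and 1093 CPM in the low hearts. The gene was highest of all Cast hearts in Cast_1 and lowest in Cast_5 and Cast_6, and its log2 fold change was 0.08 with all hearts and -2.0 without Cast_1. Dusp1, a phosphatase that ends MAP kinase signals, and Angptl4, an inhibitor of lipoprotein lipase, were lower in the high hearts, with log2 fold changes of -0.79 ± 0.20 and -1.14 ± 0.21. The call for Dusp1 was lost without any of Cast_3, Cast_5, Cast_6, Cast_7 or Cast_8.

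The receptor gene and some of its chaperones were lower in the high hearts. Nr3c1, the glucocorticoid receptor, had 72.2, 87.0 and 78.5 CPM in the high hearts, against 101, 94.4, 110.4 and 113 CPM in the low hearts, without overlap (-0.40 ± 0.10). Hsp90aa1, the inducible HSP90, had 157, 179 and 146 CPM in the high hearts, against 248, 244, 257 and 242 CPM in the low hearts, and Fkbp4, which encodes the HSP90 co-chaperone FKBP52 that favours hormone binding, had 104, 129.7 and 91.2 CPM in the high hearts, against 151, 165, 227 and 192 CPM in the low hearts. All high hearts were below all low hearts in both genes, with log2 fold changes of -0.62 ± 0.09 and -0.76 ± 0.16. These were the 3 lower genes among 10 tested members of the list of glucocorticoid and mineralocorticoid signalling, and none was higher (1 lower without Cast_6, 1 higher without Cast_1). At an unadjusted p under 0.05 none was higher and 4 were lower, and DESeq2 and limma gave 0 higher and 3 lower each. Nr3c1 lost the call without Cast_6, Cast_7 or Cast_8, and Fkbp4 without Cast_6 or Cast_8.

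The wider set of heat shock proteins and chaperones showed the same direction: 12 of 18 tested members were lower and 1 was higher, with a median log2 fold change of -0.61 (8 lower without Cast_6 and 11 without Cast_2). Hsph1, the HSP110 nucleotide exchange factor, had 48.1, 52.7 and 32.6 CPM in the high hearts, against 106, 108, 137 and 107 CPM in the low hearts, with Cast_6 the lowest and Cast_7 the highest heart (-1.37 ± 0.17). Dnaja1, a partner of HSP70, had 45.4, 44.0 and 41.9 CPM in the high hearts, against 94.4, 96.2, 102 and 81.3 CPM in the low hearts and did not overlap either (-1.09 ± 0.10). Hspd1, the chaperone of the mitochondrial matrix, had 192 to 250.2 CPM in the high hearts, against 350.4 to 431 CPM in the low hearts (-0.84 ± 0.11), and Stip1, which links HSP70 to HSP90, had 57.5 to 63.6 CPM in the high hearts, against 93.8 to 116 CPM in the low hearts (-0.79 ± 0.09). Hspa1a and Hspa1b, the inducible HSP70 genes, share most of their sequence, so their reads may be split. Their summed level was 12.5, 11.6 and 9.75 CPM in the high hearts, against 43.6, 31.15, 43.0 and 15.7 CPM in the low hearts. The means were 11.3 and 33.4 CPM, a log2 ratio of -1.57, and Cast_8 lay close to the high hearts. The call for Hspa1a was lost without any heart other than Cast_8, and that for Hspa1b without any other than Cast_2 and Cast_8. Bag3, a co-chaperone of the muscle Z-disc, was the member that was higher (0.34 ± 0.10), a call that was lost without any heart other than Cast_1. Exons of Cryab, the small heat shock protein gene of muscle (-0.60 ± 0.09), share 17.0% of their bases with Hspb2 on the opposite strand, and no source used here says whether counting used strand. The same limit holds for Cebpd, Fbn1, Ctgf, Txnip, Dbp and Nppa, which share up to 61.5% of their exon bases with a gene on the other strand.

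The hearts of the 7 other strains were not used in the division and allowed a test. In these 56 libraries the level of each gene was fitted on log2 Fkbp5 CPM with a separate mean for each strain, so that a slope of 1 means a doubling of the gene for each doubling of Fkbp5 within strains. Of 16150 genes tested there, 121 (0.749%) had a positive and 36 (0.223%) a negative slope past an adjusted p of 0.05. A total of 14629 genes were tested in both fits. Of the 902 genes that were higher in the high Cast hearts and tested in both, 54 (5.99%) had a positive slope past the threshold, which is 46.2% of the 117 positive slopes. Of the 896 lower genes, 14 (1.56%) had a negative slope, which is 38.9% of the 36 negative slopes, and no gene passed edgeR's test in opposite directions. At an unadjusted p under 0.05 in both fits 57 genes had opposite directions, and with limma for the slopes or DESeq2 for Cast the number past the threshold was also 0. It was 5 without Cast_1 and 1 without 129_6. Among the 117 genes with a positive slope, 106 (90.6%) were on the higher side in the high Cast hearts, and among the 36 with a negative slope, 30 (83.3%) were on the lower side. Of all 14629 genes, 51.9% were on the higher side. A slope that did not pass is not shown to be absent.

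These counts rested in part on 2 hearts with high Fkbp5 for their strain, 129_6 with 65.4 CPM and NZO_8 with 43.0 CPM. Without NZO_8, 54 positive and 21 negative slopes passed, and 24 and 7 of them were shared with Cast. Without 129_6, the counts were 116 and 23, with 51 and 11 shared. Without both hearts, 17 and 8 passed, with 10 and 2 shared. Leaving out the NZO strain gave 41 and 16, leaving out 129 gave 83 and 16, and leaving out WSB gave 182 and 87. Of the Cast hearts, the shared counts were 34 and 9 without Cast_3, and the lower one was 8 without Cast_6 or Cast_8.

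**Figure D3:**
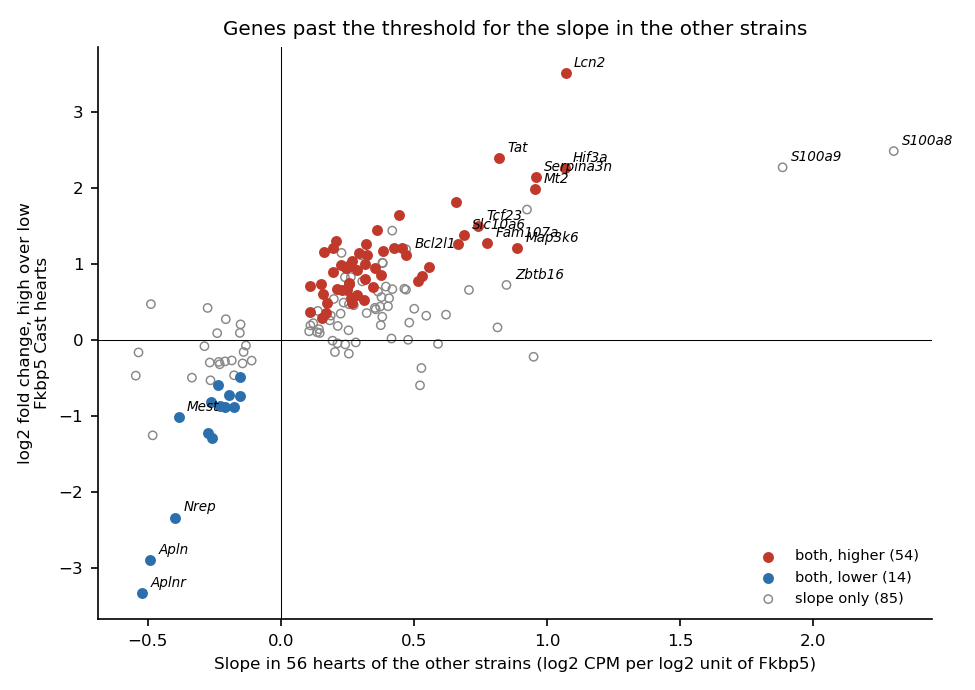
Genes past the threshold for a slope on Fkbp5 in the 56 hearts of the other strains, with that slope on the x axis (log2 CPM per log2 unit of Fkbp5) and the log2 fold change, high over low Cast hearts, on the y axis. The 54 genes that were higher in Cast and the 14 that were lower (filled) lie in opposite corners, and 85 genes (open) passed for the slope but not in Cast.

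Of the 26 glucocorticoid receptor targets tested in the other strains, 10 had a positive slope past the threshold and none a negative one, with a median slope of 0.35. The count was 6 without the 129 strain and 8 without NZO_8. Hif3a had a slope of 1.07 ± 0.12 (edgeR adjusted p = 2.4e-08), positive in 7 of 7 strains. Map3k6 had a slope of 0.89 ± 0.10 (edgeR adjusted p = 1.9e-07) and Zbtb16 of 0.85 ± 0.10 (edgeR adjusted p = 2e-07), both positive in 7 of 7 strains. Zbtb16 thus followed Fkbp5 within the other strains although the high and low Cast hearts overlapped. These 3 genes also passed without both 129_6 and NZO_8. Klf15, with a slope of 0.32 ± 0.06 (edgeR adjusted p = 0.0016), and Tsc22d3, with 0.35 ± 0.08 (edgeR adjusted p = 0.0064), were each positive in 6 of 7 strains. Klf15 did not pass without the 129 strain or without both hearts, and Tsc22d3 did not pass without NZO_8 or without the 129 strain. The slopes of Mt2, 0.96 ± 0.17 (edgeR adjusted p = 0.00042), and of Mt1, 0.45 ± 0.09 (edgeR adjusted p = 0.0036), were positive in 6 of 7 strains and did not pass without the NZO strain. Per1 had a slope of 0.32 ± 0.13 that did not pass (edgeR adjusted p = 0.36). None of the 18 heat shock and chaperone genes passed for the slope in these strains, with a median slope of 0.0001. None of 10 tested genes of glucocorticoid and mineralocorticoid signalling passed either, with a median slope of -0.014. A member of that signalling list passed with a negative slope when the WSB strain was left out.

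Genes outside the target list that were higher in the high Cast hearts and had a positive slope in the other strains included Slc10a6, Bcl2l1, Fam107a and Tcf23. Slc10a6, a carrier of sulphated steroids, had 33.5, 23.9 and 27.6 CPM in the high hearts, against 14.98, 12.9, 8.44 and 7.53 CPM in the low hearts. High and low hearts did not overlap (1.37 ± 0.24), and the slope in the other strains was 0.69 ± 0.11 (edgeR adjusted p = 7.5e-05), positive in 6 of 7 strains. Bcl2l1, which encodes the survival protein BCL-XL, had 139, 86.5 and 74.5 CPM in the high hearts, against 61.5, 42.7, 45.2 and 34.7 CPM in the low hearts. It was also higher in all high hearts (1.12 ± 0.25, call lost without Cast_3, Cast_7 or Cast_8), with a slope of 0.47 ± 0.06 (edgeR adjusted p = 1.6e-06) in 7 of 7 strains. Fam107a, a stress-induced actin-binding protein, had 49.8, 39.4 and 27.1 CPM in the high hearts, against 21.8, 16.1, 17.2 and 9.69 CPM in the low hearts, with a slope of 0.77 ± 0.14 (edgeR adjusted p = 0.00063) and a call in Cast that was lost without Cast_1, Cast_3, Cast_5 or Cast_7. Tcf23, a transcription factor gene of the helix-loop-helix class, had 12.4, 9.24 and 9.03 CPM in the high hearts, against 4.16, 4.05, 3.18 and 3.12 CPM in the low hearts and a slope of 0.74 ± 0.11 (edgeR adjusted p = 4e-05). Plin4, which coats lipid droplets, and Herpud1, a part of the degradation machinery of the endoplasmic reticulum, had slopes of 0.25 ± 0.04 (edgeR adjusted p = 1.1e-05) and 0.32 ± 0.05 (edgeR adjusted p = 3.8e-05). Slc10a6, Bcl2l1, Plin4 and Herpud1 still passed without both 129_6 and NZO_8, while Fam107a and Tcf23 did not.

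In the direction of lower expression, Aplnr, the receptor for the peptide apelin on endothelial cells, had a slope of -0.52 ± 0.09 (edgeR adjusted p = 0.00019), negative in 7 of 7 strains and past the threshold without both hearts. Apln, the gene of apelin itself, had a slope of -0.49 ± 0.13 (edgeR adjusted p = 0.049), negative in 7 of 7 strains, but it missed the threshold without NZO_8 and without any strain other than 129. Nrep, a gene active in regenerating neurons and in fibroblasts, had a slope of -0.40 ± 0.08 (edgeR adjusted p = 0.0015), negative in 7 of 7 strains and not past the threshold without both hearts. Mest, an imprinted gene, had a slope of -0.38 ± 0.08 (edgeR adjusted p = 0.0019) and 2.75 to 5.69 CPM in the high hearts, against 6.80 to 12.1 CPM in the low hearts. The slope of Mest did not pass without the NZO strain. Its call in Cast was lost without any heart other than Cast_5, and its exons share 23.1% of their bases with Copg2 on the opposite strand. St8sia4, Auts2, Arhgap18, Zfp608, Adcy3 and Fat4 also passed in both, with slopes between -0.28 and -0.20 and log2 fold changes between -1.29 and -0.59. None of these 6 slopes passed without both 129_6 and NZO_8, and those of Zfp608, Adcy3 and Fat4 did not pass without either heart alone. The call in Cast was lost without Cast_6 for Auts2 and Arhgap18, without Cast_3, Cast_6 or Cast_8 for Adcy3, and without any of Cast_3, Cast_5, Cast_6, Cast_7 or Cast_8 for Zfp608. Exons of Adcy3 share 22.1% of their bases with Cenpo on the opposite strand.

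The receptor binds DNA as a pair at an inverted repeat, and its consensus was searched in promoter windows from RefSeq, which run from 250 bases before to 50 bases after a transcript start. The letters searched were GNACANNNTGTNC, which read the same on both strands. They occurred in 0.475% of all 32851 windows and in 0.537% of 27025 genes. Of the 54 genes that were higher in Cast with a positive slope, 48 had a window and 5 of these (10.4%) held the letters. The letters were in 43 of 10574 (0.407%) of the genes tested in Cast. They were in 8 of 688 (1.16%) of all genes higher in the high hearts, which include these 5. They were in 4 of 668 (0.599%) of those lower and none of 9 of the genes lower with a negative slope. Mt2, which also passed in both sets of hearts, had no match. One window of each of the 5 genes is shown because these genes passed in both sets of hearts, with the matched letters in capitals. Another window of Fam107a, shifted by a few bases, holds the same match and is not shown, so 6 of 68 windows matched. The coordinates are those of GRCm38.p6, and each sequence reads 5′ to 3′ on the strand of its gene. A second set of letters, TGCGCNC, a metal response core, was searched in the same windows and is not marked. It was in 14 of the 48 genes (29.2%), against 3148 of 10574 (29.8%) of the genes tested in Cast. A match is a description of the sequence and does not show binding. The window of Fkbp5 itself (chr17:28486100-28486399, minus strand) had no match, which says only that the letters are not in this window.
Map3k6 (chr4:133240568-133240867, plus strand, letters at -181 to -169 from the start): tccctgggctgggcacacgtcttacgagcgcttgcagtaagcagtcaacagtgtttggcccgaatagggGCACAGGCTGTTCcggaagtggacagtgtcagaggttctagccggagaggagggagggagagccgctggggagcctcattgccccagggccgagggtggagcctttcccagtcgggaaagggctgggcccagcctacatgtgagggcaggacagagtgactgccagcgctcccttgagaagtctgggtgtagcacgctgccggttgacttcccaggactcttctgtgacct
Slc10a6 (chr5:103629354-103629653, minus strand, letters at -163 to -151): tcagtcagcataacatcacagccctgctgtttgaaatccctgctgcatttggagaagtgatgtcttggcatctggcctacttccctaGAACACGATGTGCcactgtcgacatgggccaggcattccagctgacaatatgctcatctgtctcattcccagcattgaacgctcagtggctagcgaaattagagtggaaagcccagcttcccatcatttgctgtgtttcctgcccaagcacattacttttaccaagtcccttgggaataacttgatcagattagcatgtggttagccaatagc
Mt1 (chr8:94178839-94179138, plus strand, letters at -94 to -82): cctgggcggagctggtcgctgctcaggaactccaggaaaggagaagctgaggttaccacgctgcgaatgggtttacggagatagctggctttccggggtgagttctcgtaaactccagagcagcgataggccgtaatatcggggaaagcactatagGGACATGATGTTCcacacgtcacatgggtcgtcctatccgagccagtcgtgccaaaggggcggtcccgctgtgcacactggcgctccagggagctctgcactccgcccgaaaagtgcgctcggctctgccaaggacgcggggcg
Serpina3n (chr12:104406458-104406757, plus strand, letters at -78 to -66): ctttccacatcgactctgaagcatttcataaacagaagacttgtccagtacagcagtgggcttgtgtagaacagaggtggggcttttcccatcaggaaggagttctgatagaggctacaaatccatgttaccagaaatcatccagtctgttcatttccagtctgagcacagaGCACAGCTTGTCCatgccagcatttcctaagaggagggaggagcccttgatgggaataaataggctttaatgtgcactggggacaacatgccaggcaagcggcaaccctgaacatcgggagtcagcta
Fam107a (chr14:8309730-8310029, minus strand, letters at -118 to -106): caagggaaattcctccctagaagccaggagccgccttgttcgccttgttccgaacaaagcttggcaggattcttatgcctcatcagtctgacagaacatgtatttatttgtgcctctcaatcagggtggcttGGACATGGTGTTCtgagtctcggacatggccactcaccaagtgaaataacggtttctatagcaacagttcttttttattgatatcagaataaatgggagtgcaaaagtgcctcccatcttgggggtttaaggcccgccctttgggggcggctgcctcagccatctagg

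**Figure D4:**
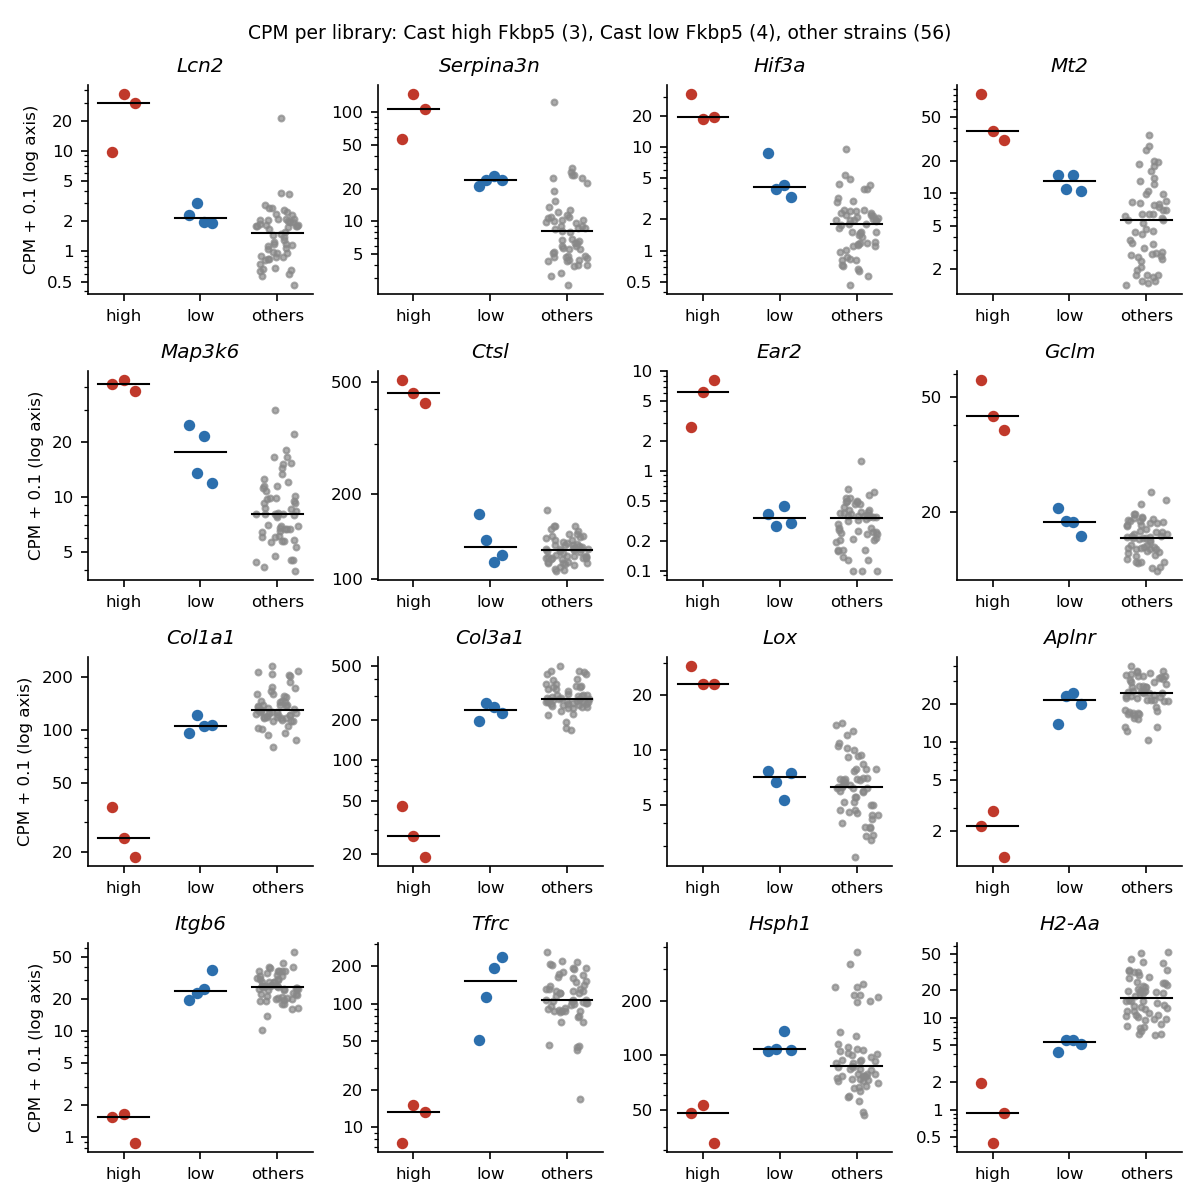
Level per library (CPM + 0.1, log axis) of 16 genes in the 3 high Cast hearts, the 4 low Cast hearts and the 56 hearts of the other strains, with the median of each group as a bar. In all 16 genes the high and low Cast hearts do not overlap, and in all but Lcn2, Serpina3n, Mt2 and Hsph1 the 3 high hearts also lie outside the range of the other strains.

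The acute phase and inflammatory list had 12 higher and no lower genes among 28 tested, with a median log2 fold change of 0.52. The number higher was 5 without Cast_3 and 17 without Cast_1. Lcn2, which encodes lipocalin 2, a protein that captures bacterial iron carriers, had 9.53, 36.6 and 29.7 CPM in the high hearts, against 2.22, 2.90, 1.88 and 1.82 CPM in the low hearts. All high hearts were above all low hearts, but Cast_1 was well under Cast_5 and Cast_6 (3.51 ± 0.44, at least 3.14 with any heart left out). Serpina3n, a serine protease inhibitor of the acute phase, had 57.1, 148 and 108 CPM in the high hearts, against 21.0, 23.9, 26.2 and 23.9 CPM in the low hearts, with Cast_1 again the lowest high heart (2.13 ± 0.28). Orm3, an orosomucoid, had 9.61, 7.90 and 9.95 CPM in the high hearts, against 1.77, 1.55, 0.921 and 1.73 CPM in the low hearts, and Itih3, which stabilises hyaluronan, had 3.95, 6.84 and 12.4 CPM in the high hearts, against 1.77, 1.60, 1.61 and 1.76 CPM in the low hearts. Their log2 fold changes were 2.61 ± 0.22 and 2.20 ± 0.34, and neither overlapped. Lrg1, a secreted glycoprotein of the acute phase, was even within each group, with 40.5, 39.1 and 35.7 CPM in the high hearts, against 16.8, 16.4, 16.4 and 14.6 CPM in the low hearts (1.26 ± 0.09). Osmr, the receptor of oncostatin M, had 30.5, 67.0 and 72.3 CPM in the high hearts, against 28.9, 26.9, 27.7 and 31.1 CPM in the low hearts, and Socs3, the feedback inhibitor of its pathway, had 2.58, 10.3 and 9.52 CPM in the high hearts, against 3.03, 3.23, 4.18 and 4.88 CPM in the low hearts. In both genes Cast_5 and Cast_6 were high, while Cast_1 lay within or at the edge of the low hearts. Osmr lost its call without any heart other than Cast_1, and Socs3 passed only without Cast_1.

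In the other strains 5 of 30 tested members of this list had a positive slope and none a negative one, and 2 did so without NZO_8. Lcn2 had a slope of 1.07 ± 0.14 (edgeR adjusted p = 1.6e-06), positive in 6 of 7 strains, and passed when 129_6 or NZO_8 alone was left out, though not without both. Lrg1 had a slope of 0.32 ± 0.05 (edgeR adjusted p = 9.4e-05) in 7 of 7 strains and likewise did not pass without both. The slope of Serpina3n, 0.96 ± 0.21 (edgeR adjusted p = 0.0085), was positive in 5 of 7 strains and was 0.18 without the NZO strain. NZO_8 was the highest of the 56 other hearts for Lcn2 (21.1 CPM), Serpina3n (124 CPM), Lrg1, Osmr and Socs3.

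Of 22 neutrophil markers, 16 were in the table and 13 were tested. Among these 5 were higher and none lower, with a median log2 fold change of 2.27 (3 without Cast_6, 10 without Cast_1). Their summed level was 28.1, 79.0 and 73.3 CPM in the high hearts, against 7.47 to 16.8 CPM in the low hearts and 2.91 to 316 CPM in the other strains. S100a9, a subunit of the neutrophil protein calprotectin, had 0.684, 7.96 and 11.6 CPM in the high hearts, against 0.724, 2.37, 1.53 and 0.863 CPM in the low hearts. Only Cast_5 and Cast_6 were high, since Cast_1 was below every low heart, and the gene did not pass (2.27 ± 0.81). It passed without Cast_1 (2.78), and its log2 fold change was 1.64 without Cast_6. S100a8, its partner, had 0.608, 5.24 and 7.79 CPM in the high hearts, against 0.0905, 1.65, 0.729 and 0.597 CPM in the low hearts. Again Cast_5 and Cast_6 were high, Cast_1 lay among the low hearts, and of the single hearts left out the gene passed only without Cast_1 (2.48 with all hearts). Retnlg, a secreted protein of neutrophils, had 0.532, 3.18 and 3.27 CPM in the high hearts, against 0.272, 0.305, 0.192 and 0.0995 CPM in the low hearts and did not overlap (3.395 ± 0.63). Clec4d, a lectin receptor of myeloid cells, had 1.82, 4.51 and 3.50 CPM in the high hearts, against 0.634, 0.865, 0.307 and 0.630 CPM in the low hearts (2.40 ± 0.38). Of the 16 markers, Il1r2, Ngp, Mmp8, Fpr1 and Fpr2 were at 0 in at least 1 low heart and none was at 0 in a high heart. A marker of such low level passed the filter on counts only where it was high, so the count and the median describe the tested members alone. Lcn2 belongs to this list, to the acute phase list and to the glucocorticoid targets. In bulk tissue more neutrophils and more RNA per cell cannot be told apart, and for all lists here the same holds. The part of neutrophil RNA in the acute phase genes was not tested.

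In the other strains S100a9 and S100a8 had slopes of 1.89 ± 0.42 (edgeR adjusted p = 0.0079) and 2.30 ± 0.44 (edgeR adjusted p = 0.0012), positive in 3 of 7 strains and negative in 4. These rested on NZO_8, where S100a9 reached 87.4 CPM, and without that heart they were -0.23 and -0.14. Icam1, through which activated endothelium holds leukocytes, had 11.3, 30.6 and 30.1 CPM in the high hearts, against 10.05, 8.73, 8.48 and 9.79 CPM in the low hearts. Selp, the P-selectin gene of endothelium and platelets, had 2.77, 7.54 and 7.30 CPM in the high hearts, against 1.18, 1.96, 2.46 and 2.75 CPM in the low hearts. The groups did not overlap, although Cast_1 was barely above the low hearts. Both calls were lost without any of Cast_3, Cast_5, Cast_6, Cast_7 or Cast_8, and that of Selp also without Cast_2.

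Collagens were lower in the high hearts. Of 26 tested genes of fibrillar collagens and fibroblast matrix, 13 were lower and 3 higher, with a median log2 fold change of -0.93, and 12 (without Cast_6) to 18 (without Cast_1) were lower when single hearts were left out. The summed level of the list was 1240.0 to 1719.8 CPM in the high hearts, against 2173 to 2531 CPM in the low hearts and 1971 to 4043 CPM in the other strains. Col3a1, the collagen of distensible tissue, had 45.4, 27.1 and 19.0 CPM in the high hearts, against 194, 263, 248 and 222 CPM in the low hearts. Cast_1 was the highest of the high hearts and still far under the lowest low heart (-2.93 ± 0.29). Col1a1, a chain of the main fibrillar collagen, had 36.3, 24.1 and 18.8 CPM in the high hearts, against 96.1, 122, 105 and 106 CPM in the low hearts, and Col1a2, the other chain, had 54.7, 40.1 and 31.1 CPM in the high hearts, against 100.03, 118, 119 and 106 CPM in the low hearts. Neither overlapped, and the log2 fold changes were -2.03 ± 0.21 and -1.40 ± 0.18. In Col1a1 and Col3a1 every high heart was below every heart of the other strains, which spanned 79.8 to 231 CPM for Col1a1.

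The chains of collagen VI, the microfibrillar collagen around muscle cells, moved together. Col6a1 had 21.7, 16.2 and 13.1 CPM in the high hearts, against 56.04, 69.2, 58.4 and 54.0 CPM in the low hearts, Col6a2 had 24.6, 22.6 and 16.7 CPM in the high hearts, against 76.9, 89.9, 78.7 and 72.0 CPM in the low hearts, and Col6a3 had 16.8, 24.8 and 12.1 CPM in the high hearts, against 66.6, 75.6, 58.6 and 58.7 CPM in the low hearts. In each chain the 3 high hearts were below all low hearts, with log2 fold changes of -1.81 ± 0.17, -1.90 ± 0.14 and -1.86 ± 0.23. Col15a1, which links basement membranes to the matrix, had 13.1 to 21.3 CPM in the high hearts, against 76.2 to 103 CPM in the low hearts (-2.44 ± 0.19). The chains of collagen V, Col5a1 and Col5a2, had log2 fold changes of -1.09 ± 0.11 and -0.87 ± 0.09. Lum, which spaces collagen fibrils, had 16.2 to 29.0 CPM in the high hearts, against 52.7 to 70.8 CPM in the low hearts (-1.51 ± 0.19), and Fbn1, the main microfibril protein, had 35.7 to 58.2 CPM in the high hearts, against 92.7 to 150.2 CPM in the low hearts (-1.26 ± 0.20). Fn1, fibronectin, had 243, 66.4 and 109 CPM in the high hearts, against 139.6, 174, 159 and 184 CPM in the low hearts, which overlapped because Cast_1 was above all low hearts. Dcn, a small proteoglycan, was higher, with 329, 346 and 344 CPM in the high hearts, against 266, 269, 262 and 291 CPM in the low hearts (0.32 ± 0.07), and Thbs2 and Ctgf were the other members that were higher. The call for Dcn was lost without Cast_3, Cast_5, Cast_6, Cast_7 or Cast_8, and that for Ctgf without Cast_1, Cast_3, Cast_5, Cast_7 or Cast_8.

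No member of the matrix list had a slope past the threshold in the other strains, where the median slope over its 26 tested genes was -0.05. Col1a1 had a slope of -0.06 ± 0.05 (edgeR adjusted p = 0.89) and Col3a1 of -0.13 ± 0.06 (edgeR adjusted p = 0.47). At an unadjusted p under 0.05, 1 member had a positive and 4 a negative slope, and limma gave 0. In edgeR 1 member passed with a positive slope without 129_6, as 1 did without the NOD strain. Without the WSB strain 1 member passed with a negative slope. Fkbp5 of the other strains did not reach the levels of the high Cast hearts, so a slope at those levels could not be measured there.

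Enzymes and inhibitors that shape the matrix were mixed: of 24 tested, 3 were higher and 6 lower (3 lower without Cast_6). Lox, lysyl oxidase, which crosslinks collagen and elastin, had 28.8, 23.0 and 23.0 CPM in the high hearts, against 7.604, 6.62, 5.26 and 7.43 CPM in the low hearts. It was higher in every high heart (1.89 ± 0.15), opposite to the collagens it acts on. P4ha1, the prolyl hydroxylase that makes collagen stable, had 40.0, 41.4 and 37.6 CPM in the high hearts, against 79.1, 87.0, 81.4 and 86.6 CPM in the low hearts, and the groups were each tight and far apart (-1.08 ± 0.08). Pcolce, which speeds the trimming of procollagen, was lower (-0.93 ± 0.12), as was Loxl2, a relative of Lox (-1.04 ± 0.20). A gene model near-identical to Loxl2, Gm21451, is in the table, and the log2 ratio of the summed levels was -0.97. Timp3, an inhibitor of metalloproteinases bound to matrix, had 843, 656 and 639.5 CPM in the high hearts, against 431, 309, 439.8 and 279 CPM in the low hearts. It was higher without overlap (0.97 ± 0.18) and had a slope of 0.25 ± 0.06 in the other strains (edgeR adjusted p = 0.0093), positive in 7 of 7 strains, that did not pass without 129_6 or without the B6 strain. Its exons share 21.3% of their bases with Syn3 on the opposite strand. Timp4, a related inhibitor of heart, overlapped between the Cast groups (0.31 ± 0.30) but had a slope of 0.55 ± 0.12 in 7 of 7 other strains (edgeR adjusted p = 0.0049), which did not pass without the 129 strain. In the other strains 3 members of this list had a positive slope, among them Timp3 and Timp4, and 1 did without 129_6.

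Of 16 tested markers of fibroblasts themselves, 6 were lower and 1 higher, with a median of -0.35 (4 lower without Cast_6, 8 without Cast_1), and the summed level was 673 to 1030.3 CPM in the high hearts, against 974 to 1126 CPM in the low hearts and 1224 to 2713 CPM in the others. Pdgfra, the growth factor receptor that defines cardiac fibroblasts, had 39.8, 36.6 and 35.01 CPM in the high hearts, against 44.9, 40.1, 36.9 and 38.9 CPM in the low hearts, with overlap (-0.11 ± 0.10). Tcf21, a fibroblast transcription factor, had 3.001, 2.998 and 3.60 CPM in the high hearts, against 6.25, 4.10, 6.22 and 6.30 CPM in the low hearts (-0.83 ± 0.19, call lost without any heart other than Cast_1 and Cast_3). Meox1, a factor of activated fibroblasts, had 2.05, 3.54 and 1.57 CPM in the high hearts, against 5.57, 6.62, 6.37 and 6.57 CPM in the low hearts (-1.39 ± 0.25), and Thy1, a surface marker, had 3.38, 2.30 and 1.96 CPM in the high hearts, against 5.52, 6.97, 5.83 and 4.65 CPM in the low hearts (-1.18 ± 0.22). Both were lower in every high heart. Dpep1, a surface peptidase, was the member that was higher (0.97 ± 0.15). The part of fibroblast number in the collagen values was not tested.

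Other matrix genes among the most changed were Cilp, a matricellular protein of cardiac fibroblasts, with 2.62, 1.91 and 1.28 CPM in the high hearts, against 7.69, 9.82, 8.13 and 7.23 CPM in the low hearts (-2.10 ± 0.24), and Spon2, a secreted matrix protein, with 0.646, 0.636 and 0.654 CPM in the high hearts, against 3.12, 5.12, 1.46 and 6.504 CPM in the low hearts (-2.65 ± 0.49, call lost without Cast_6). Basement membrane genes were lower in 3 of 15 (Col4a1, Col4a4 and Hspg2), against 6.1% of all tested genes, with a median of -0.28. That count ran from 0 without Cast_3 to 7 without Cast_1.

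Of 24 endothelial genes 3 were higher and 5 lower (0 and 2 without Cast_6), against 6.19% and 6.1% of all tested genes. The median was -0.04, and the summed level was 8666 to 9189.5 CPM in the high hearts, against 7223 to 8142 CPM in the low hearts. Lpl, the lipoprotein lipase, was among the 3 higher genes and held a large part of the sum, with 4440 of 8142 CPM in Cast_2. Lpl was higher in every high heart, with values given among the flagged results. The sum without Lpl was not examined, so the difference in the sum cannot be read as one in the other endothelial genes. Aplnr had 2.09, 2.76 and 1.15 CPM in the high hearts, against 13.9, 23.1, 24.1 and 19.8 CPM in the low hearts, and the ligand gene Apln had 0.608, 0.666 and 0.523 CPM in the high hearts, against 3.76, 5.40, 5.76 and 3.05 CPM in the low hearts. All high hearts were below all low hearts and below all 56 others, which spanned 10.4 to 39.4 CPM for Aplnr and 0.899 to 14.7 CPM for Apln, with log2 fold changes of -3.33 ± 0.31 and -2.90 ± 0.29. Vegfa, the growth factor for endothelium, had 257, 244 and 214 CPM in the high hearts, against 488, 497, 439 and 489 CPM in the low hearts, without overlap (-1.01 ± 0.09). Its receptors went in different directions, since Kdr had 119, 128 and 118 CPM in the high hearts, against 175, 259, 160.1 and 215 CPM in the low hearts (-0.74 ± 0.15) and Flt1, a decoy for the ligand, had 222, 259 and 327 CPM in the high hearts, against 194, 184, 179.5 and 155 CPM in the low hearts (0.60 ± 0.13). Kdr lost its call without Cast_6 or Cast_8 and Flt1 without Cast_3, Cast_6, Cast_7 or Cast_8. Kdr had a slope of -0.15 ± 0.04 in the other strains (edgeR adjusted p = 0.019), negative in 5 of 7, which did not pass without 129_6, NZO_8 or the B6 strain. Pecam1 and Cdh5, which mark all endothelial cells, overlapped between the groups, with log2 fold changes of 0.09 ± 0.09 and -0.21 ± 0.10.

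Of 15 tested genes of the hypoxia response 3 were higher and 3 lower. Egln3, a prolyl hydroxylase induced by hypoxia, was lower, with 53.5, 106 and 65.4 CPM in the high hearts, against 151, 197, 236 and 222 CPM in the low hearts (-1.43 ± 0.25). Bnip3, a receptor for removal of mitochondria, was higher, with 849, 699.9 and 664 CPM in the high hearts, against 382, 278, 321 and 304 CPM in the low hearts (1.20 ± 0.12). The groups did not overlap in either gene, and in Bnip3 all 7 Cast hearts were above the 84.2 to 230.0 CPM of the other strains. Bnip3 had a slope of 0.19 ± 0.05 in those strains (edgeR adjusted p = 0.015), positive in 6 of 7, which did not pass without NZO_8 or the AJ strain.

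Genes of MHC class II, which presents antigen to T cells, were lower in the high hearts. Of 7 tested genes 4 were lower (2 without Cast_6) and none was higher, also at an unadjusted p under 0.05 or with DESeq2 or limma. The median was -1.91, and the summed level was 4.29 to 10.6 CPM in the high hearts, against 24.1 to 30.4 CPM in the low hearts and 25.4 to 225 CPM in the other strains. In the other strains none of 8 tested class II genes had a slope past the threshold, with a median slope of -0.013. H2-Aa, a chain of the class II molecule, had 1.82, 0.333 and 0.818 CPM in the high hearts, against 4.12, 5.57, 5.68 and 5.01 CPM in the low hearts, and Cd74, the invariant chain that guides it, had 5.17, 2.06 and 1.05 CPM in the high hearts, against 12.9, 13.2, 15.6 and 11.8 CPM in the low hearts. Cast_1 was the highest of the high hearts in both, yet it was under all low hearts (-2.40 ± 0.44 and -2.30 ± 0.45). Without Cast_1 the log2 fold changes were -3.16 for H2-Aa and -3.10 for Cd74, and the calls were lost without Cast_6 for H2-Aa and without Cast_5 for Cd74. B-cell genes were lower in 4 of 11 tested (median -2.02, from 0 without Cast_6 to 8 without Cast_1). Most of these genes were scarce and could pass the filter on counts only through the low hearts, so the count and the median describe the tested genes alone. Ms4a1, which encodes CD20, had 0.0760, 0.212 and 0.0981 CPM in the high hearts, against 0.724, 1.04, 1.69 and 0.531 CPM in the low hearts (-2.88 ± 0.57, call lost without Cast_6). The summed level of the B and plasma cell list was 19.9 to 26.7 CPM in the high hearts and 24.5 to 42.4 CPM in the low hearts, which overlap. The part of B cells in the MHC class II values was not tested.

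Macrophage markers were mixed, with 4 higher and 3 lower of 21 (1 higher without Cast_5, 1 lower without Cast_6) and summed levels of 305 to 387 CPM in the high hearts and 328 to 393 CPM in the low hearts. Csf1r, the growth factor receptor that macrophages need, had 27.2, 22.2 and 25.2 CPM in the high hearts, against 34.9, 37.1, 40.0 and 38.1 CPM in the low hearts (-0.60 ± 0.10). Its exons share 15.1% of their bases with Hmgxb3 on the opposite strand. Fcrls, a scavenger receptor gene of macrophages, had 1.63, 0.908 and 1.34 CPM in the high hearts, against 6.65, 7.15, 11.1 and 8.20 CPM in the low hearts, and Gpnmb, a glycoprotein of lipid-laden macrophages, had 4.67, 5.36 and 7.56 CPM in the high hearts, against 1.99, 2.19, 1.73 and 1.69 CPM in the low hearts. Fcrls was lower (-2.68 ± 0.26) and Gpnmb higher (1.62 ± 0.21) in every high heart. Cd163, a scavenger receptor that glucocorticoids induce in macrophages, had 56.5, 46.8 and 49.6 CPM in the high hearts, against 42.9, 40.4, 40.4 and 27.3 CPM in the low hearts. It did not overlap and did not pass (0.43 ± 0.15), while in the other strains its slope was 0.37 ± 0.07 (edgeR adjusted p = 0.00042), positive in 6 of 7 strains but not past the threshold without the NZO strain. T and NK cell markers were near the limit of detection, with summed levels of 0.687 to 1.18 CPM in the high hearts and 1.06 to 1.496 CPM in the low hearts, and 1 of 15 was tested.

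Tfrc, the transferrin receptor through which cells take up iron, was lower by the second largest margin of the named genes. It had 7.41, 15.1 and 13.1 CPM in the high hearts, against 50.9, 113, 193 and 238 CPM in the low hearts. The low hearts spread widely, with Cast_2 the lowest, and the high hearts were all below the range of the other strains, 16.9 to 258 CPM (-3.64 ± 0.60, call lost without Cast_1 or Cast_6). Fth1 and Ftl1, the chains of the iron store ferritin, were higher, with log2 fold changes of 0.38 ± 0.08 and 0.49 ± 0.10. Fth1 lost the call without Cast_3, Cast_6 or Cast_8, and Ftl1 without Cast_3 or Cast_8. Together with the metallothioneins they belong to a list of NRF2 targets and metallothioneins, of which 10 were higher and 2 lower of 22 tested, with a median of 0.39 (6 higher without Cast_3, 13 without Cast_1). Gclm, the regulatory subunit of glutathione synthesis, had 56.9, 42.9 and 38.3 CPM in the high hearts, against 20.6, 18.6, 18.4 and 16.4 CPM in the low hearts, with no overlap (1.31 ± 0.14). Transcripts of Gclm share sequence with Ppia, and the log2 ratio of the summed levels of both was 0.41, though Ppia made up most of that sum. Gclc, the catalytic subunit, had 33.5, 31.5 and 31.2 CPM in the high hearts, against 21.9, 22.01, 22.6 and 23.3 CPM in the low hearts (0.51 ± 0.08), and Gstm1, a glutathione transferase, had 355 to 382 CPM in the high hearts, against 211 to 276 CPM in the low hearts (0.64 ± 0.10). Both were higher in all high hearts. Sod2 and Prdx1, antioxidant enzymes, had log2 fold changes of -0.51 ± 0.08 and -0.51 ± 0.11, and Prdx1 lost its call without Cast_3, Cast_6, Cast_7 or Cast_8.

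Lysosome and autophagy genes gave 3 higher (6 without Cast_1) and no lower of 14, with a median of 0.18. Ctsl, the lysosomal protease cathepsin L, had 508, 458 and 422 CPM in the high hearts, against 169.9, 137, 115 and 121 CPM in the low hearts. The groups did not overlap, and the high hearts were above the 107 to 175 CPM of the other strains (1.77 ± 0.14). Sqstm1, the autophagy receptor p62, had 771, 559 and 603 CPM in the high hearts, against 394, 352, 304 and 287 CPM in the low hearts, and Map1lc3b, the membrane mark of autophagosomes, had 299, 302 and 324 CPM in the high hearts, against 212, 192, 203 and 197 CPM in the low hearts. The log2 fold changes were 0.95 ± 0.14 and 0.62 ± 0.08, and no call of these 3 genes was lost when a heart was left out. Their slopes in the other strains did not pass. Exons of Sqstm1 share 17.3% of their bases with a gene on the opposite strand that averaged 0.650 CPM.

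Among genes of muscle atrophy, 3 were higher and 1 lower of 16, with a median of 0.77 (2 higher without Cast_1, 5 without Cast_5). In the other strains 4 had a positive slope, and 1 did without NZO_8. Fbxo31, a ubiquitin ligase subunit, had 122, 103 and 117 CPM in the high hearts, against 59.7, 51.6, 52.6 and 48.0 CPM in the low hearts and did not overlap (1.11 ± 0.10). Fbxo32, a ligase widely used as a marker of atrophy, had 664, 289 and 293 CPM in the high hearts, against 334, 228, 207 and 219 CPM in the low hearts. Trim63, another such ligase, had 616, 239 and 189.5 CPM in the high hearts, against 256, 215, 132 and 163 CPM in the low hearts. Cast_1 was the highest heart in both, and Cast_5 and Cast_6 lay among the low hearts, and neither gene passed (0.75 ± 0.33 and 0.86 ± 0.44). Klf15 and Bnip3, described above, were the other members that were higher, and Txnip was lower (-0.42 ± 0.11, call lost without any of Cast_3, Cast_5, Cast_6, Cast_7 or Cast_8).

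Energy metabolism changed at single steps. Of 26 genes of glucose uptake and glycolysis 4 were higher (1 without Cast_6) and 4 lower. Hk2, the insulin-regulated hexokinase of muscle, had 261, 297 and 346 CPM in the high hearts, against 470.0, 474, 539 and 520.3 CPM in the low hearts (-0.73 ± 0.11), Pfkp, the platelet form of phosphofructokinase, had 34.9 to 43.0 CPM in the high hearts, against 64.5 to 77.0 CPM in the low hearts (-0.89 ± 0.11), and Ldha, which makes lactate, had 341 to 481 CPM in the high hearts, against 575 to 649.7 CPM in the low hearts (-0.64 ± 0.12). All were lower in each high heart. Pfkfb3, which makes an activator of phosphofructokinase, was higher, with 16.4, 17.2 and 15.5 CPM in the high hearts, against 5.48, 6.31, 7.98 and 7.13 CPM in the low hearts (1.28 ± 0.14). None of 18 fatty acid oxidation genes passed in either direction (median -0.14). At an unadjusted p under 0.05, 2 were lower and none was higher, DESeq2 gave 2 lower and limma 0, and 7 were lower without Cast_1. Fabp3, the fatty acid carrier of heart muscle, had 1353, 1027 and 748 CPM in the high hearts, against 1479, 1892, 1874 and 1935 CPM in the low hearts (-0.78 ± 0.19, call lost without Cast_3, Cast_5, Cast_6, Cast_7 or Cast_8). Glul, glutamine synthetase, which glucocorticoids induce in muscle, had 1250.5, 589 and 788 CPM in the high hearts, against 494, 348, 295 and 295 CPM in the low hearts. It was higher in every high heart (1.29 ± 0.28, call lost without Cast_3, Cast_6, Cast_7 or Cast_8). Got1, the cytosolic aspartate transaminase, had 1323 to 1606 CPM in the high hearts, against 798 to 934 CPM in the low hearts (0.75 ± 0.09). Of the insulin pathway, Pik3r1, a regulatory subunit of PI3 kinase, had 569.9, 366 and 387 CPM in the high hearts, against 283, 184, 232 and 141 CPM in the low hearts (1.07 ± 0.25), and Igfbp3, which binds IGF, had 67.6, 70.3 and 82.0 CPM in the high hearts, against 35.5, 25.5, 24.3 and 24.6 CPM in the low hearts (1.42 ± 0.14). Both were higher without overlap, and Pik3r1 lost the call without Cast_1, Cast_3, Cast_6, Cast_7 or Cast_8. The 13 genes of the mitochondrial genome had a median of 0.03 and the 22 ribosomal protein genes one of 0.11. None of either passed, with 1 of each higher at an unadjusted p under 0.05, 1 ribosomal protein gene higher with DESeq2, none with limma, and 1 mitochondrial gene lower without Cast_1.

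Of 20 sarcomere genes 3 were higher and 3 lower, against 6.19% and 6.1% of all tested genes, with a median of 0.11. The counts ran from 1 and 2 without Cast_6 to 5 and 5 without Cast_1. Actc1, cardiac actin, had 3151 to 4274 CPM in the high hearts, against 5294 to 7677 CPM in the low hearts (-0.90 ± 0.15), and Myl2, the ventricular light chain, had 3419 to 3549.7 CPM in the high hearts, against 4348 to 4775 CPM in the low hearts (-0.40 ± 0.07). Xirp2, a protein of the intercalated disc, had 918 to 1213 CPM in the high hearts, against 1767 to 2084 CPM in the low hearts (-0.92 ± 0.11). All 3 genes were lower in each high heart. Des, desmin, had 1926, 2194 and 2450.4 CPM in the high hearts, against 1629, 1554, 1571 and 1636 CPM in the low hearts and was higher without overlap (0.46 ± 0.09). Myh7, the fetal myosin heavy chain, had 2565, 3288 and 8076 CPM in the high hearts, against 1291, 1119, 898 and 1430.1 CPM in the low hearts. All high hearts were above the low ones and Cast_6 was highest (1.97 ± 0.40, 1.30 without Cast_6, call lost without Cast_3, Cast_7 or Cast_8). Myh7 shares 96.5% of the shorter transcript with Myh6, the adult heavy chain, and the summed level of both gave a log2 ratio of 0.25. Myh6 averaged 30870 CPM in the high hearts and 28770 CPM in the low hearts, so the ratio of the sum says little about Myh7. Reads of the 2 genes may be shared, which leaves Myh7 uncertain. The stress peptide genes Nppa and Nppb overlapped between the groups. Casq2, the calcium store of the sarcoplasmic reticulum, was lower (-0.61 ± 0.11), Kcnh2, a potassium channel, was higher (0.81 ± 0.19, call lost without any heart other than Cast_1 and Cast_5), and Tbx5, a cardiac transcription factor, was higher, with 67.2, 61.1 and 59.8 CPM in the high hearts, against 33.9, 28.3, 25.2 and 32.02 CPM in the low hearts (1.07 ± 0.11).

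Several genes with the largest differences belong to none of these groups. Ear2, an eosinophil-type ribonuclease, had 2.66, 6.12 and 8.02 CPM in the high hearts, against 0.272, 0.178, 0.345 and 0.199 CPM in the low hearts and the largest positive log2 fold change of the named genes (4.52 ± 0.42), with near-identical copies outside the table. Copies of Chil3, Ctsl, Bnip3, Glul and Ldha outside the table were also found, and reads shared with them are uncertain. Doc2b, a calcium sensor of vesicle fusion, had 32.6, 17.5 and 20.4 CPM in the high hearts, against 6.34, 1.83, 2.42 and 1.06 CPM in the low hearts, and Pcnxl2, a membrane protein, had 7.26, 5.69 and 5.79 CPM in the high hearts, against 0.905, 0.484, 0.460 and 0.664 CPM in the low hearts. Fah, the last enzyme of tyrosine breakdown, had 44.9, 86.6 and 100.5 CPM in the high hearts, against 12.7, 10.7, 14.2 and 11.5 CPM in the low hearts. High and low hearts were apart in all 4 genes, with log2 fold changes of 3.06 ± 0.55, 3.33 ± 0.25 and 2.66 ± 0.25 for Doc2b, Pcnxl2 and Fah. Doc2b had a log2 fold change of 3.73 without Cast_2. Chil3, a chitinase-like protein of myeloid cells, had 10.6, 4.78 and 4.78 CPM in the high hearts, against 0.317, 2.34, 1.496 and 1.13 CPM in the low hearts (2.29 ± 0.51, call lost without Cast_6, Cast_7 or Cast_8). Apod, a lipid carrier induced by stress, had 10.8, 19.99 and 29.7 CPM in the high hearts, against 5.07, 4.63, 4.45 and 5.67 CPM in the low hearts (2.02 ± 0.30), and Ttr, the carrier of thyroid hormone, had 3.87, 3.57 and 4.58 CPM in the high hearts, against 1.63, 1.07, 0.537 and 0.796 CPM in the low hearts (2.002 ± 0.31). On the lower side, Itgb6, an integrin chain that activates TGF-beta, had 1.44, 1.54 and 0.785 CPM in the high hearts, against 19.6, 22.9, 24.98 and 37.2 CPM in the low hearts, the largest negative difference (-4.38 ± 0.31). Its slope in the other strains was -0.32 ± 0.09 and negative in 6 of 7 strains, and it did not pass (edgeR adjusted p = 0.068) except without the NOD or the WSB strain or with Xist as a covariate. Cyr61, a matricellular protein induced by stretch, had 22.1, 15.4 and 12.04 CPM in the high hearts, against 35.8, 59.4, 49.96 and 71.7 CPM in the low hearts (-1.72 ± 0.28).

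Clock genes varied among the low hearts. Dbp, an output gene of the clock, had 2.43, 7.54 and 5.07 CPM in the high hearts, against 1.18, 1.83, 49.5 and 2.12 CPM in the low hearts, and Arntl, its activator, had 43.3, 18.1 and 23.1 CPM in the high hearts, against 40.8, 38.2, 4.49 and 28.6 CPM in the low hearts. Cast_7 was far from the other low hearts in both, high for Dbp and low for Arntl. Of 20 clock genes 2 were higher in the high hearts, among them Per1, against 6.19% of all tested genes. Without Cast_7, 7 clock genes and 429 of all genes were higher. Without Cast_5, 1 clock gene and 855 of all genes were. The log2 fold change of Dbp was -1.43 with all hearts and 1.54 without Cast_7. The part of time of day in the results was not tested.

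The high hearts differed among themselves. Only Cast_1 of them had Xist (411 CPM, against 0.818 and 1.18 CPM in Cast_5 and Cast_6). What sets Cast_1 apart cannot be told from what goes with Xist. Cast_1 was at least 2-fold above both Cast_5 and Cast_6 in 188 tested genes and at least 2-fold below both in 175. Of these, 8 and 14 were counted as higher in the high hearts, against 6.19% of all tested genes. The same counts for Cast_5 or Cast_6 against the other high hearts were not made. Sesn1, a stress protein that restrains mTORC1, had 481, 155 and 229 CPM in the high hearts, against 169, 132, 128 and 94.9 CPM in the low hearts, and Arrdc2, an arrestin-like protein, had 31.5, 7.45 and 7.88 CPM in the high hearts, against 5.66, 5.04, 4.18 and 3.68 CPM in the low hearts. Both were far higher in Cast_1 than in any other Cast heart. Dnajb9, a chaperone of the endoplasmic reticulum, went the other way, with 56.7, 106 and 98.2 CPM in the high hearts, against 43.5, 32.98, 36.3 and 35.7 CPM in the low hearts (1.23 ± 0.20). Cast_1 was the lowest of the high hearts, and in the list of the unfolded protein response 2 of 20 genes were higher with all hearts, 1 without Cast_6 and 16 without Cast_1. Over all tested genes these counts were 917, 436 and 1419. With Cast_1 left out the log2 fold changes were larger for Osmr (1.28), Socs3 (1.37), Icam1 (1.71) and S100a9 (2.78), and smaller for Mt2 (1.43) and Trim63 (0.16).

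**Figure D5:**
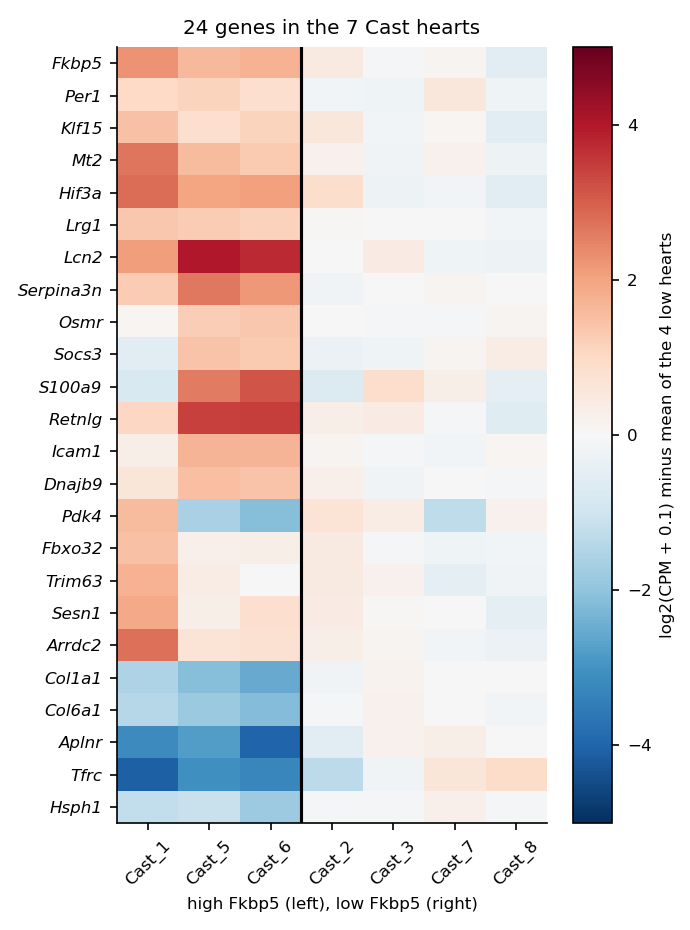
Level of 24 genes in the 7 Cast hearts, as log2(CPM + 0.1) minus the mean of the 4 low hearts (colour scale), with the high hearts left of the line and the low hearts right of it. Cast_1 differs from Cast_5 and Cast_6 in S100a9, Socs3 and Osmr, which are near the low hearts in Cast_1, and in Pdk4, Fbxo32, Trim63 and Sesn1, which are highest in Cast_1.

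Of the 161 genes named from the lists or by their rank that passed in Cast, 161 kept their direction whichever heart was left out, and 95 kept their call each time. The kept direction is no test. High and low hearts did not overlap in 98.4% of all higher and 98.9% of all lower genes. Without overlap, leaving out a heart can hardly change a direction. With Xist as a covariate 158 of the 161 kept it, and without Cast_1, the high heart with Xist, 151 did.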

How the data were processed

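RNA sequencing of 63 heart libraries was used as deposited. The authors deposited estimated counts, one value per gene and library, on GRCm38, per the submitters' processing notes, and no source used here gives the aligner, the counter or the use of strand. They also deposited log2-scale variance-stabilised values, for which the submitters' processing notes name DESeq2, and these values were used in one alternative only. Of the estimated counts 18.4% were not whole (tolerance 1e-06) and were rounded for the count tests. Of 19220 genes 16425 passed edgeR's filter (minimum count 10) over all libraries, and TMM factors came from all 63.

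Members and lists were chosen with earlier results of these data known. The 3 high and 4 low Cast hearts were compared with edgeR's quasi-likelihood test (robust) over 14808 genes, Fkbp5 left out, on 5 residual degrees of freedom, with Benjamini-Hochberg adjustment. Since Fkbp5 itself made the groups, no p of that contrast is given. The slope on log2 Fkbp5 CPM (prior count 2) within the 7 other strains was tested likewise over 16150 genes, on 48 residual degrees of freedom. P-values measure the spread between libraries, and count precision covers counting error only. The model was tested on simulated data with known changes.

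Of 54 gene lists with 923 genes, 909 genes were measured and 851 tested in Cast, and 39 were in several lists. The genes named are Fkbp5, Col1a1, Lcn2 and S100a9, the 12 largest calls in each direction without overlap, leaving out genes whose mean log2 CPM was under 1, up to 3 genes per list and direction (the 2 of highest level where none passed), and up to 10 per direction that passed in both fits. Predicted and clone gene models were not named by this rule, except as copies or overlapping genes, and members were also given where a group is described whole. Genes were called copies at 95% identity or more over at least 50% of the shorter transcript (blastn). Same-numbered libraries of different strains were compared for pairing, and the numbers do not pair them.

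Alternatives changed the normalization, the test (DESeq2, limma), the filter on low counts and the libraries. The fits with Xist as a covariate and those without 129_6, NZO_8 or both were chosen after seeing the data. R 4.3.3, edgeR 4.0.16, limma 3.58.1, DESeq2 1.42.0, Python 3.11.15, pandas 2.3.3 and blastn 2.17.0 were used.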

Additional observations from a re-analysis of the deposited data

Results flagged for a closer look

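Single hearts lay far from the others of their group, by the gap to the nearest heart over the range of the group (Dixon's test at 95%), in 11 genes among the 4 low Cast hearts. Chance alone marks about 1 in 20 groups tested this way, and 190 named genes were examined, so these 11 are near the number that chance gives. They are listed as descriptions only.

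Cast_7 was the highest low heart for the clock gene Dbp (49.5 CPM), for its fellow clock gene Per1 (71.1 CPM), for the heat shock gene Hsph1 (137.3 CPM) and it was the lowest for the endothelial growth factor Vegfa (439.5 CPM). For the transcriptional repressor Bcl6, Cast_7 stood apart with 19.1 CPM, and the gene had 19.0 to 27.1 CPM in the high hearts, against 19.1 to 38.8 CPM in the low hearts. Cast_2 stood apart for Lpl, the lipoprotein lipase (4440.0 CPM), Fabp3 (1479 CPM), Fbxo32 (333.6 CPM) and Igfbp3 (35.5 CPM). Lpl had 5079.7, 5011 and 5753 CPM in the high hearts, against 4439.6, 3505, 3539 and 3628 CPM in the low hearts. Cast_3 was the lowest low heart for Tcf21 (4.10 CPM) and Cast_8 the lowest for Cd163 (27.3 CPM).

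Outside Cast, the Fkbp5 level of 129_6 (65.4 CPM) was far above the other 129 hearts, and that of NZO_8 (43.0 CPM) was far above the other NZO hearts. The slopes without these hearts are given with the results above.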

How the results depend on the processing

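For the Cast hearts, the count with all 63 libraries in one fit was 1842 higher and 1603 lower genes, against 917 and 903. Leaving out single Cast hearts gave 331 to 1419 higher and 358 to 1478 lower genes, and 34 to 58 higher and 8 to 14 lower genes shared with the slopes (54 and 14 with all hearts, 34 and 9 without Cast_3), with 0 to 5 in opposite directions. TMM factors from the Cast hearts, DESeq2 size factors, DESeq2's test, limma on the deposited values, both filters on low counts, removal of the X, Y and mitochondrial genes and Xist as a covariate moved these counts by less than 1.5 times, from 856 to 1310 higher and 769 to 1313 lower. For the slopes, leaving out single strains gave 41 to 182 positive and 16 to 87 negative genes, 19 to 73 and 4 to 34 shared with Cast and 0 to 1 in opposite directions. Without 129_6 the counts were 116 and 23, with 1 opposite gene, without NZO_8 54 and 21 (24 and 7 shared), and without both 17 and 8 (10 and 2 shared). S100a8 and S100a9 reversed, with slopes of -0.18 and -0.32 without the NZO strain (up to 2.76 and 2.43 without 129), -0.14 and -0.23 without NZO_8, and of -0.084 for S100a9 without both. The cause was not tested. Of the slope results of single genes under alternatives, 2777 stayed on the same side of the threshold, 149 no longer passed and 40 newly passed. For Cast the numbers were 2689, 293 and 28. A change of direction where neither fit passed was counted as staying, as for Pdk4 in Cast without Cast_1.

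No paired analysis was possible because the high and low Cast hearts share no replicate number. In the other strains same-numbered libraries shared little (median r 0.052 over 153 pairs, against -0.011 over 1191 pairs of different number), and the replicate block gave 124 positive and 35 negative slopes, 59 and 14 of them shared; with it the slope of Itgb6 passed and those of Apln, Zfp608, Adcy3, Kdr and S100a9 did not. With 3 against 4 hearts, genes under about 1 CPM had few counts. Leaving out each of the 56 other libraries in turn was not run.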
